A study of Mus musculus with 10 samples.

Results

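Splenic T cells of Cd47ΔT mice, in which the labels give a T cell genotype lacking Cd47, are described here against T cells of Cd47f/f control mice, gene by gene over every gene that the control T cells expressed. Members were chosen by their control values: a gene was a member when it reached 1 TPM (a transcript's share of its library, normalised for length and scaled to a fixed total) in both control libraries, and 11237 of 45706 genes in the deposited table did so. The choice read the control level only, not the difference between genotypes. The study profiled splenic T cells and type 2 conventional dendritic cells of both genotypes by RNA sequencing; only the 4 T cell libraries, 2 of each genotype, are used. Both groups were labelled as T cells from spleen and neither carried a treatment in the labels. The control genotype has a Cd47 allele flanked by recombination sites, and the mutant lacks Cd47 in T cells by its name. The Cre line, the exons removed, the age and sex of the mice, and the way T cells were isolated are not given in the sources at hand. Nothing in the labels says that the 2 libraries of a genotype came from separate mice, so each p-value below rests on the spread among these 4 libraries alone, and that spread may be technical. In bulk RNA, fewer cells of a type and less RNA per cell cannot be told apart.

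CD47 is a widely expressed surface glycoprotein that binds the inhibitory receptor SIRPα on macrophages and dendritic cells, and it also binds thrombospondins and integrins. On T cells it acts as a marker of self toward phagocytes and can modulate activation and survival. Naive T cells recirculate between blood and lymphoid organs under the transcription factors TCF7 and LEF1, the cytokine receptor IL7R, the chemokine receptor CCR7 and the egress receptor S1PR1; after antigen they divide and switch on adhesion, cytokine receptor and cytotoxic genes.

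Cd47 itself read 138 and 233 TPM in the control libraries and 40.4 and 51.7 TPM in the Cd47ΔT libraries. The genotypes did not overlap, and the log2 fold change was -1.95 ± 0.26 (SE, n = 2 per genotype, adjusted p = 0.0112 by limma). The gene lies on chr16:49800533-49915010 (plus strand, GRCm38), and the value covers the whole gene, so it does not say which exons the remaining reads came from. With no filter on low values the adjusted p was 0.0872.

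The 4 libraries differed in ways that their genotype labels do not name. Depth is unknown, because TPM keep no read number. Ribosomal protein genes took 33.0% of the TPM in control library 1 and 27.6 to 28.5% in the other 3. Immunoglobulin genes took 0.254 and 0.289% in the controls and 1.41 and 1.56% in Cd47ΔT. Xist, a sex-linked gene looked at as a check of the libraries and made from the inactive X chromosome, read 33.2 TPM in control library 1, 0 in control library 2, 6.21 in Cd47ΔT library 1 and 0.01 in Cd47ΔT library 2. The Y-linked Eif2s3y read 28.8, 81.5, 63.4 and 80.9 TPM in the same order, so control library 1 and Cd47ΔT library 1 held transcripts of both kinds. Across members, Pearson's r of log2(TPM + 1) was 0.985 within the controls, 0.988 within Cd47ΔT and 0.956 to 0.959 between genotypes, a description over genes that share libraries.

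All 15 genes of a T cell marker list were members, and none was called in either direction by limma (1 higher and 1 lower at an unadjusted p under 0.05). Their summed level was 9458 and 9276 TPM in the controls and 9393 and 8564 TPM in Cd47ΔT. The T cell receptor constant gene Trac read 1224 and 1322 against 1169 and 1037 TPM (log2 fold change -0.21 ± 0.10, adjusted p = 0.321). The CD3 subunit gene Cd3e, named after its values were seen, read 414 and 423 against 514 and 492 TPM (0.26 ± 0.09, adjusted p = 0.160). The labelled cell type was therefore present by its defining markers in all 4 libraries.

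Markers of other splenic cells were higher in Cd47ΔT in most lists, as the plot of marker sums shows. Members called higher numbered 8 of 9 plasma cell, 6 of 6 conventional dendritic cell, 9 of 9 red pulp macrophage, 9 of 12 monocyte, 8 of 13 natural killer cell, 5 of 8 plasmacytoid dendritic cell, 4 of 7 erythroid, 3 of 4 neutrophil, 2 of 5 B cell, 2 of 2 mast cell and basophil and 1 of 5 innate lymphoid markers, where 8.5% of all genes tested were called higher. Ccl17 was listed at 0 in every library, Retnlg, Mcpt4 and Il13 in both controls, and the platelet markers Pf4, Ppbp, Gp6 and Treml1 in both controls. Plasma cell markers summed to 1540.2 and 1676 TPM in the controls and 6733 and 7989 TPM in Cd47ΔT. Most of that sum came from the immunoglobulin constant genes Igkc, Ighm and Igha, which are not of plasma cells alone. On the same list, Mzb1 read 3.73 and 5.79 against 32.2 and 26.8 TPM, and Sdc1 0.54 and 1.15 against 3.20 and 4.41 TPM. Conventional dendritic cell markers summed to 53.9 and 72.8 against 430 and 778 TPM, and red pulp macrophage markers to 28.8 and 38.3 against 214 and 338 TPM. Most of the dendritic cell sum came from Cd74 (22.2 and 32.6 against 211 and 362 TPM), H2-Aa, H2-Ab1 and H2-Eb1. These are MHC class II genes of antigen-presenting cells, not of dendritic cells alone. The 6 dendritic cell members were these genes with Irf8 and Siglech, the last also on the plasmacytoid list. Stromal and endothelial markers summed to 89.5 and 97.6 against 69.2 and 70.3 TPM, nearly all of it Pecam1 (89.2 and 96.9 against 67.5 and 68.2 TPM, adjusted p = 0.0736), while Col3a1, Dcn, Pdpn, Ccl21a, Cxcl13 and Madcam1 were at 0 in the controls. These sums moved with each group of genes described below as higher, and their part in those differences was not tested. Some markers, such as Hmox1 and Ccr2, also belong to lists described below.

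**Figure D1:**
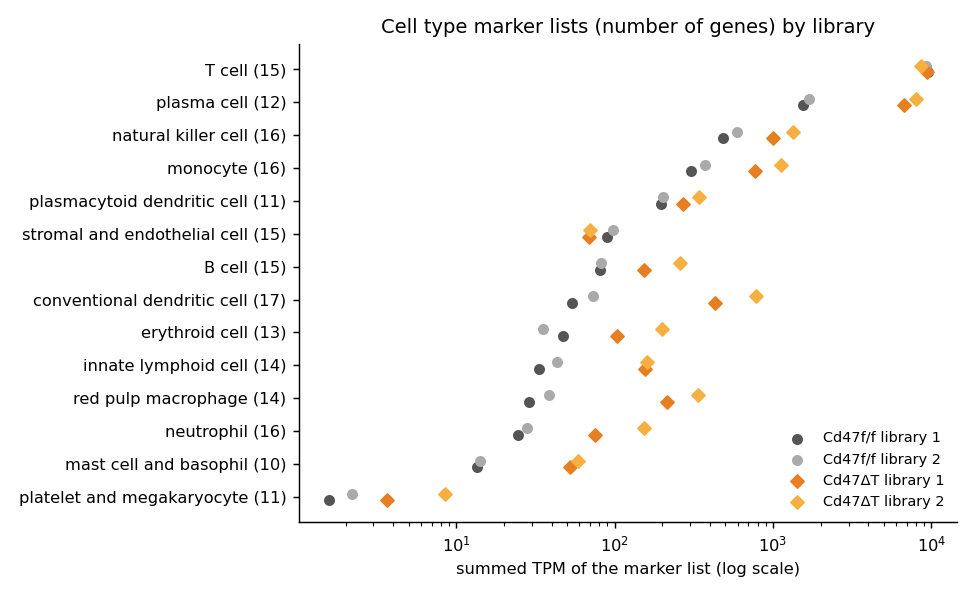
Summed TPM of 14 cell type marker lists (log axis), 1 point per library, circles for Cd47f/f and diamonds for Cd47ΔT; the number of genes in each list stands in parentheses. T cell markers sit between 8564 and 9458 TPM in all 4 libraries, while plasma cell, dendritic cell and macrophage sums lie to the right in both Cd47ΔT libraries.

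Among those markers, Igkc, the immunoglobulin kappa constant gene, read 587 and 638 TPM in the controls and 4271 and 4690.1 TPM in Cd47ΔT (log2 fold change 2.87 ± 0.10, adjusted p = 0.00078). The complement gene C1qa of macrophages read 3.45 and 4.01 against 28.1 and 40.2 TPM (2.87 ± 0.23, adjusted p = 0.00308). Lyz2, the myeloid lysozyme gene, read 19.4 and 46.9 against 194 and 349.7 TPM (3.06 ± 0.44, adjusted p = 0.0130). In all 3 genes both Cd47ΔT libraries lay above both controls. The basophil protease gene Mcpt8 read 3.34 and 3.54 against 19.6 and 17.5 TPM (2.14 ± 0.19, adjusted p = 0.00455), the only one of these 5 genes with the higher value in Cd47ΔT library 1. Hbb-bs, a beta globin gene of erythroid cells, read 11.3 and 3.84 against 28.5 and 54.1 TPM (2.38 ± 0.49, adjusted p = 0.0336), and its call ended without control library 2 (adjusted p = 0.0615).

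Of the members, 660 were higher and 109 lower in Cd47ΔT at an adjusted p under 0.05 by limma, which is 5.87 and 0.970% of them. Over all 12453 genes tested, 8.5% were higher and 0.875% lower. The counts of each list below are to be read beside these shares. All genes called lower were members. Of the 1216 tested genes outside the members 398 were higher and 0 lower. Of these 1216 genes 541 were below 1 TPM in both controls, with little room to fall, and 675 reached it in 1 control. By at least 2-fold, 510 members were higher and 44 lower. The median member changed by 0.08 on the log2 scale (middle range -0.08 to 0.27), against 0.10 over all genes tested. Both Cd47ΔT libraries lay above both controls in 3761 members and below them in 1486 (33.5 and 13.2%), where 37.0 and 11.9% of all genes tested did so.

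Those counts moved with single libraries and with scaling. Without control library 1 there were 483 higher and 140 lower members, without control library 2 there were 1193 and 128, without Cd47ΔT library 1 there were 463 and 50, and without Cd47ΔT library 2 there were 435 and 57. Higher genes made up 85.8% of the called members, but 60.6% under quantile scaling and 73.6% under median-of-ratios scaling, which shifted the median of all genes by -0.18 and -0.12 on the log2 scale. Leaving out control library 1 shifted that median by -0.11 and leaving out control library 2 by 0.13. With no filter on low values only 12 members were called higher and 1 lower; among the genes described below, Ly6c1, Igkc, Jchain, Plac8, Lgals1 and Cdk1 kept their call. In lists described below that limma called in 1 direction only, the count in the other direction at an unadjusted p under 0.05 was also 0, apart from 1 lower gene each in the mitosis, guanylate-binding protein, G1 control and chromatin lists, 2 lower in the ERK and 3 lower in the AP-1 list, 1 higher in the quiescence and 1 higher in the ribosomal list.

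**Figure D2:**
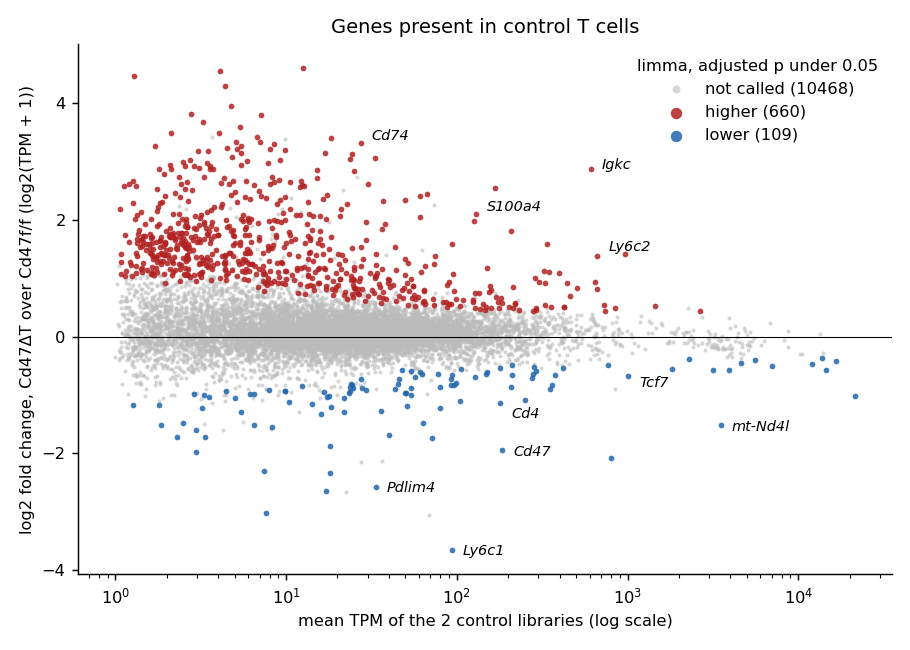
Mean control TPM (log axis) against the log2 fold change of Cd47ΔT over Cd47f/f T cells for all 11237 members, 1 point per gene; red points were called higher and blue points lower by limma. Higher genes are spread over all levels and reach above 3, while Ly6c1 is the lowest labelled point at -3.66.

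The share of members called depended on their level in the controls. At 1 to 2 TPM, taking the lower of the control values, 144 of 902 members were higher (15.96%) and 4 lower. The share fell with each step to 2.66% at 20 to 50 TPM (74 of 2786), and was 5.50% at 100 TPM or more (57 of 1036). Lower members had their largest share at that highest level, 35 of 1036 or 3.38%. Among members at 20 TPM or more in both controls, 166 of 5061 were higher and 74 lower. The share also differed by length: 10.7% of the protein-coding members with the shortest exonic length (204 to 2519 bases) were higher, against 2.39% of the longest (7565 to 123179 bases). The median log2 fold change in those 2 length classes was 0.15 and 0.05. Their median standard error was 0.163 and 0.219, so the test was less precise for the longest genes. The share called lower was 1.04 and 0.498% in the same order.

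**Figure D3:**
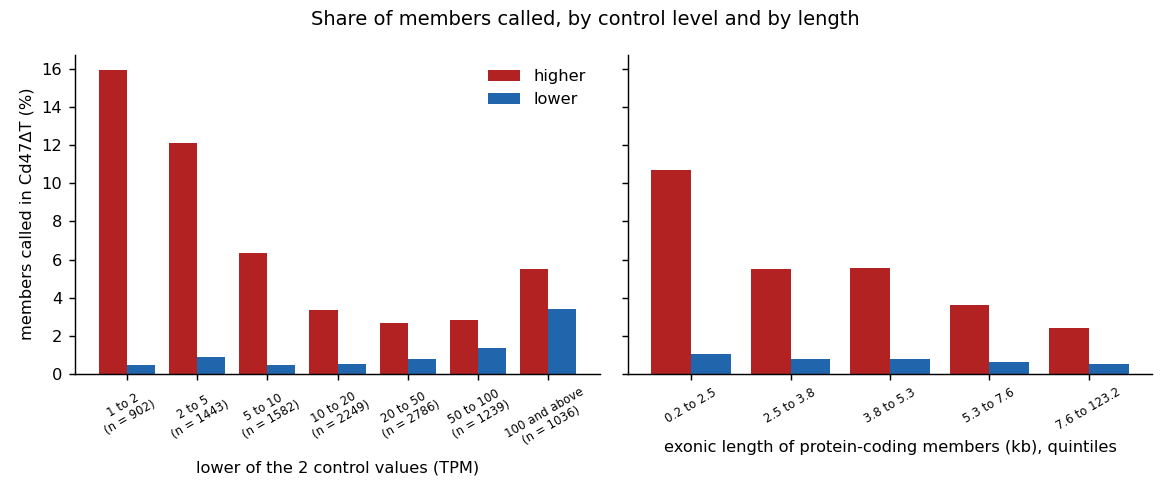
Percent of members called higher (red) and lower (blue) in Cd47ΔT, by the lower of the 2 control values in TPM (left) and by quintile of exonic length in kb (right, protein-coding members). Bars for higher genes are tallest at 1 to 2 TPM (15.96%) and in the shortest quintile (10.7%).

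As TPM add up to a fixed total, gains and losses balance within a library. Genes called higher took 2.82 and 2.97% of the TPM in the controls and 6.28 and 6.63% in Cd47ΔT. Genes called lower took 12.3 and 11.7% against 7.71 and 8.07%. The losses lay in fewer genes than the gains: the 18 members with the largest losses made up 50% of all TPM lost, and 217 members made up 50% of all TPM gained. Nearly all members persisted in Cd47ΔT: 11052 still reached 1 TPM in both libraries, 118 fell under it in 1 library and 67 in both, of which 5 were at 0.

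The largest falls and rises are given for called members at 20 TPM or more in both controls whose genotypes did not overlap. Left out were immunoglobulin and T cell receptor segments, mitochondrial genes, pseudogenes and gene models without a name. Immunoglobulin and mitochondrial genes stand in other paragraphs. Pdlim4, an actin-associated adaptor gene, read 39.2 and 28.1 TPM in the controls and 3.96 and 5.63 TPM in Cd47ΔT (log2 fold change -2.58 ± 0.25, adjusted p = 0.0049). Cd40lg, the helper T cell ligand of CD40, read 42.0 and 37.9 against 13.6 and 10.01 TPM (-1.69 ± 0.20, adjusted p = 0.0079). Both control libraries lay above both Cd47ΔT libraries in each, as the choice required. Myo6, an unconventional myosin gene, read 22.3 and 21.3 against 8.03 and 8.65 TPM (-1.29 ± 0.17, adjusted p = 0.0113). Trib2, a pseudokinase gene, read 76.8 and 82.4 against 33.2 and 33.8 TPM (-1.23 ± 0.13, adjusted p = 0.00639). Rflnb, a filamin regulator, read 102 and 106 against 46.6 and 49.6 TPM (-1.10 ± 0.12, adjusted p = 0.00721). Replicates of these 3 genes differed by little beside the gap between genotypes. Selenop, which encodes the selenium carrier selenoprotein P, read 259 and 241 against 114 and 120.3 TPM (-1.09 ± 0.11, adjusted p = 0.00538). Trat1, a T cell receptor adaptor gene, read 54.7 and 72.0 against 27.3 and 17.7 TPM (-1.47 ± 0.24, adjusted p = 0.0184). Leaving out control library 2 ended its call (adjusted p = 0.0543).

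The largest rise by that rule was that of Cd74. Cd74, the MHC class II invariant chain of antigen-presenting cells, read 22.2 and 32.6 TPM in the controls and 211 and 362 TPM in Cd47ΔT (log2 fold change 3.31 ± 0.29, adjusted p = 0.00415). Jchain, the joining chain of secreted IgA and IgM, read 57.0 and 64.3 against 309 and 345 TPM (2.41 ± 0.12, adjusted p = 0.00111). Both are markers of cells other than T cells, and both stood clear of the controls in each library, which the choice required. The costimulatory receptor gene Tnfrsf4 (OX40) read 24.9 and 20.4 against 137 and 92.3 TPM (2.27 ± 0.22, adjusted p = 0.0049). The calcium-binding protein gene S100a6 read 51.8 and 70.6 against 260.4 and 248 TPM (2.05 ± 0.17, adjusted p = 0.00308). Plac8, a small cysteine-rich protein gene, read 124 and 128 against 509.7 and 495 TPM (1.99 ± 0.10, adjusted p = 0.00111). These 3 genes were at least as far apart between genotypes as Cd47 on the log2 scale. The membrane-binding annexin gene Anxa2 read 33.6 and 42.7 against 149 and 147 TPM (1.94 ± 0.15, adjusted p = 0.00303). Cep85, a centrosome protein gene, read 34.6 and 38.0 against 124 and 143 TPM (1.84 ± 0.14, adjusted p = 0.00256). Ctla2a, a protease inhibitor gene, read 23.01 and 32.2 against 84.0 and 77.9 TPM (1.54 ± 0.19, adjusted p = 0.00895). The TNF receptor gene Tnfrsf1b read 30.3 and 36.9 against 97.0 and 85.2 TPM (1.42 ± 0.15, adjusted p = 0.00714). In all 4 the genotypes did not overlap, again by the choice.

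**Figure D4:**
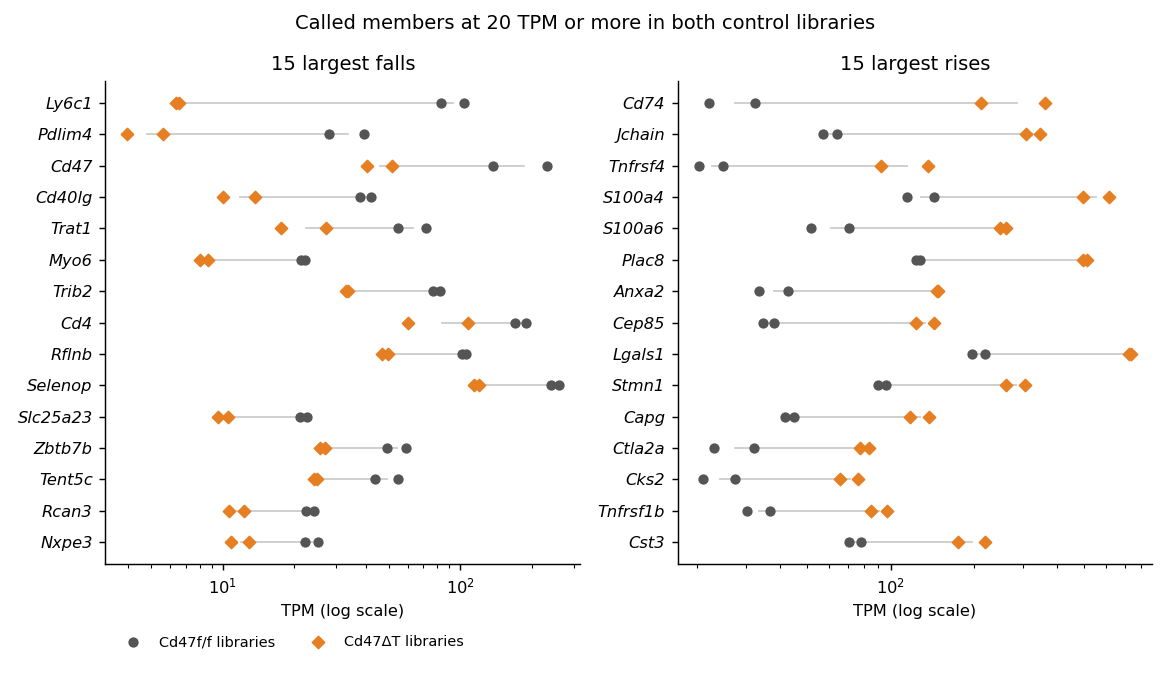
TPM (log axis) in each of the 4 libraries for the 15 largest falls (left) and the 15 largest rises (right) among called members at 20 TPM or more in both controls, leaving out immunoglobulin and T cell receptor segments, mitochondrial genes, pseudogenes and unnamed gene models; grey circles are Cd47f/f libraries, orange diamonds Cd47ΔT libraries and lines join the group means. No gene has overlapping groups, which the choice required.

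The Ly6 family, small GPI-anchored surface proteins that mark lymphocyte and myeloid subsets, moved in opposite directions: 3 of its 7 members were higher and 1 lower. Ly6c1 read 104 and 83.3 TPM in the controls and 6.53 and 6.37 TPM in Cd47ΔT, the largest fall of any member at 20 TPM or more (log2 fold change -3.66 ± 0.17, adjusted p = 0.00111). Its neighbour Ly6c2 read 595 and 738 against 1707 and 1738 TPM (1.38 ± 0.12, adjusted p = 0.0044). The products of both are recognised as the Ly6C antigen, which memory and effector CD8 T cells carry. For each gene the control libraries stood clear of the Cd47ΔT libraries, and no library left out ended either call. The promoters of both genes are shown because 2 closely related neighbours on chromosome 15 changed in opposite directions; they are RefSeq windows of the 250 bases before the start (GRCm38.p6), Ly6c1 at chr15:75048838-75049087 and Ly6c2 at chr15:75111972-75112221, both on the minus strand, written 5′ to 3′ with no letter marked.
Ly6c1: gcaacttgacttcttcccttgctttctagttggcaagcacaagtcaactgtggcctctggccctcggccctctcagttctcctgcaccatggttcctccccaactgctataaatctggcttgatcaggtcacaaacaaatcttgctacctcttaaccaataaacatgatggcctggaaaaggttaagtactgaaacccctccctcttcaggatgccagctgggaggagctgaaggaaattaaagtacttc
Ly6c2: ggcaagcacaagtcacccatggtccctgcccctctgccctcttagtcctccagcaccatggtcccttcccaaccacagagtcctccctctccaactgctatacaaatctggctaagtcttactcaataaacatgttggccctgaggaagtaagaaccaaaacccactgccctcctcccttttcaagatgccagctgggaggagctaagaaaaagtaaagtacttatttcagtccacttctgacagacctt
Each gene has 2 such windows, and the first is printed. In an alignment of the printed windows 164 of 216 aligned bases were identical (75.9%). Over all window pairs the identity was 74.7 to 86.0%, with fewer bases aligned in the other pairs. Bases just after the start lay in an annotated transcript of the gene for the printed Ly6c1 window but not for that of Ly6c2, so the Ly6c2 start is uncertain. The longest annotated transcripts of the pair were identical at 719 of 819 aligned bases (87.8%), so the split of reads between the genes is uncertain.

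Other Ly6 genes with a call were Ly6e, at 1498 and 1411 against 2112 and 2059 TPM (log2 fold change 0.52 ± 0.09, adjusted p = 0.0186), and Ly6d, a B lineage marker, at 3.11 and 2.33 against 17.7 and 47.6 TPM (3.03 ± 0.44, adjusted p = 0.0134). The Ly6e call ended without Cd47ΔT library 1 (adjusted p = 0.18), without Cd47ΔT library 2 (0.131) and under median-of-ratios scaling (0.26). That of Ly6d ended without control library 1 (adjusted p = 0.0638) and without control library 2 (0.0515). Cd52, another small GPI-anchored antigen of lymphocytes and among the most abundant members, read 2792 and 2499.7 against 3729 and 3438 TPM (0.44 ± 0.10, adjusted p = 0.0438). The Cd52 call ended without control library 2 (adjusted p = 0.057), Cd47ΔT library 1 (0.419) or Cd47ΔT library 2 (0.174).

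Factors that keep T cells quiescent and recirculating were lower or not called. Of 26 members of that list 4 were lower and none higher, with a median log2 fold change of -0.32. The lower count was 9 without control library 1, 4 without control library 2, 0 without Cd47ΔT library 1 and 1 without Cd47ΔT library 2, and it was 8 and 6 under quantile and median-of-ratios scaling. Tcf7, which encodes the transcription factor TCF1, read 975 and 1039 TPM in the controls and 616 and 645 TPM in Cd47ΔT (-0.67 ± 0.09, adjusted p = 0.0118). Its partner Lef1 read 355 and 392 against 222 and 249 TPM (-0.66 ± 0.11, adjusted p = 0.0203). The antiproliferative gene Btg1 read 284 and 279 against 183 and 179 TPM (-0.64 ± 0.10, adjusted p = 0.0157). All 3 had both controls above both Cd47ΔT libraries. Pik3ip1, an inhibitor of PI3 kinase, read 121 and 135 against 73.4 and 85.1 TPM (-0.69 ± 0.13, adjusted p = 0.0285). Without Cd47ΔT library 1 the adjusted p was 0.0692 for Tcf7, 0.166 for Lef1, 0.107 for Btg1 and 0.268 for Pik3ip1. Without Cd47ΔT library 2 it was 0.0503 for Lef1, 0.134 for Btg1 and 0.0726 for Pik3ip1.

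Homing and egress genes moved in both directions, with 4 of 25 members higher and 4 lower. The list's median of 0.10 turned negative under quantile and median-of-ratios scaling. The lower count was 0 without either Cd47ΔT library, and the higher count 7 without control library 2. The inflammatory chemokine receptor gene Cxcr3 read 44.99 and 58.4 TPM in the controls and 125 and 123 TPM in Cd47ΔT (log2 fold change 1.26 ± 0.15, adjusted p = 0.00933). Ccr2, a chemokine receptor gene also high on monocytes, read 10.2 and 17.5 against 39.3 and 52.8 TPM (1.69 ± 0.28, adjusted p = 0.0183). In both genes the Cd47ΔT libraries lay above the controls, and neither call ended when a library was left out. On the lymph node side, Ccr7 read 435 and 398 against 286 and 285 TPM (-0.54 ± 0.10, adjusted p = 0.0257). S1pr1, the sphingosine phosphate receptor for egress, read 306 and 276 against 191 and 195 TPM (-0.59 ± 0.11, adjusted p = 0.0246). Gpr183, an oxysterol receptor that positions lymphocytes, read 47.7 and 47.8 against 31.6 and 31.8 TPM (-0.58 ± 0.13, adjusted p = 0.0479). Each of the 3 lower calls ended without Cd47ΔT library 1 (adjusted p = 0.202 for Ccr7, 0.191 for S1pr1 and 0.443 for Gpr183) and without Cd47ΔT library 2 (0.201, 0.156 and 0.424). That of Gpr183 also ended without control library 1 (adjusted p = 0.0553).

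Fut7, which makes selectin ligands for entry into inflamed tissue, read 2.18 and 2.30 TPM in the controls and 9.53 and 9.46 TPM in Cd47ΔT (log2 fold change 1.70 ± 0.20, adjusted p = 0.00861). St8sia6, a sialyltransferase gene, read 13.1 and 21.04 against 1.97 and 1.70 TPM (-2.64 ± 0.27, adjusted p = 0.00615). The genotypes did not overlap in either, and no left-out library ended a call. They were 2 of the 3 genes called among 25 glycosylation members (2 higher, 1 lower, with a median of 0.06 that turned negative under quantile and median-of-ratios scaling, with a filter of 5 TPM and without control library 1; 1 and 3 without control library 1, 5 and 1 without control library 2, 1 and 1 without Cd47ΔT library 1, 2 and 1 without Cd47ΔT library 2).

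Cytokine receptor and signalling genes had 5 of 39 members higher and 4 lower, with a median of 0.16 that turned negative without control library 1. Without control library 2 the counts were 13 and 4, without Cd47ΔT library 1 they were 4 and 0, and without Cd47ΔT library 2 they were 2 and 0. Il2rb, the chain that interleukin 2 and interleukin 15 receptors share, read 116 and 185 TPM in the controls and 312 and 352 TPM in Cd47ΔT (log2 fold change 1.17 ± 0.22, adjusted p = 0.0264). Cish, a feedback inhibitor induced by STAT5, read 9.11 and 10.6 against 23.6 and 21.9 TPM (1.13 ± 0.18, adjusted p = 0.0161). Il10ra, the ligand-binding interleukin 10 receptor chain, read 17.4 and 24.7 against 45.1 and 49.7 TPM (1.15 ± 0.20, adjusted p = 0.0209). All 3 stood above both controls in both Cd47ΔT libraries. Il7r read 254 and 299.8 against 164 and 172 TPM (-0.71 ± 0.12, adjusted p = 0.0199). Ifngr2, the signalling chain of the interferon gamma receptor, read 22.02 and 25.7 against 12.2 and 14.1 TPM (-0.81 ± 0.18, adjusted p = 0.0424). Without Cd47ΔT library 1 the adjusted p was 0.119 for Cish, 0.10 for Il7r and 0.389 for Ifngr2. Without Cd47ΔT library 2 it was 0.0799 for Cish, 0.07 for Il10ra, 0.0656 for Il7r and 0.185 for Ifngr2, and the Ifngr2 call also ended without control library 1 (0.0504) or 2 (0.0564).

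Notch and TGF-β signalling, the second of which restrains T cell activation, had calls in both directions. Among 24 members 2 were higher and 3 lower, with a median of 0.03 that turned negative under quantile, median-of-ratios and protein-coding scaling and without control library 1 or Cd47ΔT library 2. Leaving out a library in turn gave 2 and 4 (control library 1), 4 and 3 (control library 2), 0 and 0 (Cd47ΔT library 1) and 0 and 1 (Cd47ΔT library 2), and 6 and 7 were lower under quantile and median-of-ratios scaling. Tgfbr2 read 133 and 165 TPM in the controls and 91.3 and 98.9 TPM in Cd47ΔT (log2 fold change -0.64 ± 0.14, adjusted p = 0.0440). The coreceptor gene Tgfbr3 read 14.8 and 21.8 against 6.72 and 7.80 TPM (-1.201 ± 0.24, adjusted p = 0.0308), and the type I receptor gene Acvrl1 16.8 and 15.4 against 5.11 and 6.53 TPM (-1.33 ± 0.20, adjusted p = 0.0153). Controls lay above Cd47ΔT in every library of the 3 genes. Without Cd47ΔT library 1 the adjusted p rose to 0.279 for Tgfbr2, 0.124 for Tgfbr3 and 0.079 for Acvrl1, and without Cd47ΔT library 2 to 0.139 for Tgfbr2 and 0.0603 for Tgfbr3. Id2, a helix-loop-helix inhibitor of effector and innate lymphocytes, was among the higher genes at 102 and 89.9 against 166 and 163 TPM (0.78 ± 0.12, adjusted p = 0.0147). Dtx3, an E3 ligase gene of the Deltex family, was another at 24.6 and 24.5 against 41.1 and 38.7 TPM (0.68 ± 0.14, adjusted p = 0.0348). Neither call held without Cd47ΔT library 1 (adjusted p = 0.0843 for Id2 and 0.417 for Dtx3) or 2 (0.0704 and 0.282).

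The coreceptor genes moved apart. Cd4 read 170.1 and 189.7 TPM in the controls and 108 and 60.2 TPM in Cd47ΔT (log2 fold change -1.15 ± 0.26, adjusted p = 0.0481). Cd8a read 331 and 380.4 against 499 and 514 TPM (0.51 ± 0.11, adjusted p = 0.0367), and Cd8b1 811 and 878 against 1169 and 1209 TPM (0.49 ± 0.09, adjusted p = 0.0259). Zbtb7b, which encodes the CD4 lineage factor ThPOK, read 49.0 and 59.1 against 27.0 and 25.7 TPM (-1.003 ± 0.15, adjusted p = 0.0153). Groups did not overlap in any of the 4, although the Cd47ΔT libraries differed from each other in Cd4. The Cd4 call ended without control library 1 (adjusted p = 0.12), control library 2 (0.116) or Cd47ΔT library 2 (0.0873). Those of Cd8a and Cd8b1 ended without Cd47ΔT library 1 (adjusted p = 0.223 and 0.179) or 2 (0.282 and 0.251), and that of Zbtb7b without Cd47ΔT library 2 (0.0635). A ratio of the coreceptors cannot be read as cell numbers from these bulk values.

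Cd4, Cd8a, Cd8b1 and Trat1 were the only genes called among 41 members of the T cell receptor complex and its proximal signalling (2 higher, 2 lower). The list's median of 0.0047 turned negative under quantile, median-of-ratios and protein-coding scaling and without control library 1 or Cd47ΔT library 1. The counts were 2 and 5 without control library 1, 5 and 1 without control library 2, 0 and 2 without Cd47ΔT library 1, and 0 and 1 without Cd47ΔT library 2. Among 24 costimulatory members, 7 were higher and 1, Cd40lg, lower, with a median of 0.36 (6 to 9 higher and 1 or 2 lower when a library was left out). Tnfrsf9, which encodes the activation-induced receptor 4-1BB, read 18.2 and 18.4 TPM in the controls and 66.3 and 58.6 TPM in Cd47ΔT (log2 fold change 1.71 ± 0.14, adjusted p = 0.00379), and no left-out library ended its call.

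Genes of effector and memory T cells were mostly higher. Of 34 members 23 were higher and none lower, with a median log2 fold change of 1.18 (22 to 26 higher when a library was left out). S100a4 read 115 and 143 TPM in the controls and 611 and 495 TPM in Cd47ΔT (2.09 ± 0.16, adjusted p = 0.00263). Lgals1, a galectin gene induced on activation, read 197 and 218 against 736 and 726 TPM (1.81 ± 0.10, adjusted p = 0.00134). Both genes stood clear of the controls and kept their call without each library. The natural killer cell marker sum moved in the same direction, 485 and 596 TPM in the controls against 1008 and 1341 TPM in Cd47ΔT. Of its 16 tested markers limma called 11 higher and 0 lower, where 8.5% of all genes tested were higher. The natural killer receptor gene Klrb1c read 2.52 and 2.72 against 16.5 and 28.8 TPM (2.66 ± 0.29, adjusted p = 0.00705). Klrd1, a natural killer receptor gene also made by CD8 effector T cells, was among those not called. It read 181 and 198 against 229 and 268 TPM (0.39 ± 0.12, adjusted p = 0.123), a large part of the control sum. The part of natural killer cells in the effector list was not tested.

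Checkpoint and exhaustion genes had 14 of 23 members higher and none lower, with a median of 1.04. The count was 8 without control library 1, 13 without control library 2, 7 without Cd47ΔT library 1 and 12 without Cd47ΔT library 2. Tigit, an inhibitory receptor for nectin ligands, read 11.2 and 14.3 TPM in the controls and 99.0 and 65.7 TPM in Cd47ΔT (log2 fold change 2.58 ± 0.23, adjusted p = 0.00455). Cd160, an HVEM receptor of cytotoxic lymphocytes, read 19.9 and 20.8 against 48.6 and 50.1 TPM (1.24 ± 0.14, adjusted p = 0.00773). Each gene was higher in both Cd47ΔT libraries than in either control. Bhlhe40, a transcription factor of cytokine-producing effector cells, read 2.13 and 2.72 against 22.3 and 17.6 TPM (2.61 ± 0.22, adjusted p = 0.00399).

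Regulatory T cell genes had 12 of 20 members higher and none lower, with a median of 1.42 (10 to 16 higher when a library was left out). Foxp3, the lineage factor of regulatory T cells, read 7.66 and 8.90 TPM in the controls and 38.4 and 28.0 TPM in Cd47ΔT (log2 fold change 1.87 ± 0.21, adjusted p = 0.00773). The helper lineage transcription factor list had 11 of 23 members higher and 1 lower, with a median of 0.88 (7 and 1, 14 and 1, 7 and 1, and 7 and 0 without control libraries 1 and 2 and Cd47ΔT libraries 1 and 2). Maf, a factor of follicular helper and interleukin 10-producing cells, read 5.15 and 7.01 against 25.8 and 19.3 TPM (1.73 ± 0.23, adjusted p = 0.0116). Batf, an AP-1 family factor of effector differentiation, read 55.3 and 49.5 against 100.2 and 82.0 TPM (0.78 ± 0.15, adjusted p = 0.0280). The Batf call ended without each library in turn (adjusted p = 0.0529, 0.0514, 0.276 and 0.0511 without control libraries 1 and 2 and Cd47ΔT libraries 1 and 2), whereas those of Foxp3 and Maf held. Both Cd47ΔT libraries exceeded both controls in the 3 genes, and Foxp3 and Maf were higher in Cd47ΔT library 1 than in library 2.

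Among the gene lists, cell type marker lists apart, mitosis had the largest median. Of 38 mitosis members 35 were higher and none lower, with a median log2 fold change of 1.73 (30 to 37 higher when a library was left out, and 1 lower without control library 1). Of 42 DNA replication members 28 were higher and none lower, with a median of 0.91. That count was 18 without control library 1, 35 without control library 2, 12 without Cd47ΔT library 1 and 15 without Cd47ΔT library 2. Cdk1, the kinase that drives entry into mitosis, read 13.5 and 13.6 TPM in the controls and 60.4 and 62.0 TPM in Cd47ΔT (2.09 ± 0.14, adjusted p = 0.00217). Ube2c, the ubiquitin-conjugating enzyme of the anaphase-promoting complex, read 10.98 and 15.7 against 79.6 and 59.2 TPM (2.30 ± 0.23, adjusted p = 0.00544). Both stood above both controls in both Cd47ΔT libraries, with Cdk1 nearly equal between replicates. Their promoters are shown because members of the mitosis list moved together and both windows hold motifs known from cell cycle promoters. They are RefSeq windows before the start (GRCm38.p6), cut where any annotated transcript begins: Cdk1 at chr10:69352939-69353162 (minus strand, 26 of 250 bases left out) and Ube2c at chr2:164769679-164769897 (plus strand, 31 left out). Capitals mark CCAAT on either strand, printed as ATTGG where it lies on the other strand, and TTTGAA, the cell cycle homology region motif.
Cdk1: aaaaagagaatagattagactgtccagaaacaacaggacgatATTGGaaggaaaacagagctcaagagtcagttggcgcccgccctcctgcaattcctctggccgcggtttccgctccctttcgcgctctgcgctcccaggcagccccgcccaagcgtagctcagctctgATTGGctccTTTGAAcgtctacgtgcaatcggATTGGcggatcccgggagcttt
Ube2c: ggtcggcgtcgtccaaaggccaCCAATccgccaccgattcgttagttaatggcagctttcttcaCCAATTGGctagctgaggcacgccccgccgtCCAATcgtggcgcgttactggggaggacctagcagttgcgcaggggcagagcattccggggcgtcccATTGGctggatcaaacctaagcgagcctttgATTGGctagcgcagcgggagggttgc
The Cdk1 window held CCAAT 3 times and TTTGAA 1 time, and the Ube2c window held CCAAT 6 times, with 1 overlapping pair on opposite strands. Over both strands of the full windows before the start, CCAAT occurred in 28 of 33 mitosis members with a promoter in the RefSeq table (84.8%), in 21 of 35 replication members (60.0%) and in 9 of 23 quiescence members (39.1%), against 34.5% of 27025 promoters of the same length. TTTGAA occurred in 13 of 33 (39.4%), 4 of 35 (11.4%) and 4 of 23 (17.4%), against 16.3% of all promoters. The 27025 promoters were not limited to members, as the lists were, so these shares do not compare like with like. A match is a string of letters, not a shown binding site.

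Other division genes followed by stage. Ccna2, the S and G2 cyclin, read 7.56 and 9.40 TPM in the controls and 40.9 and 32.6 TPM in Cd47ΔT (log2 fold change 1.99 ± 0.20, adjusted p = 0.00557). Birc5, the chromosomal passenger protein survivin, read 13.6 and 18.0 against 74.9 and 62.3 TPM (2.06 ± 0.19, adjusted p = 0.00458). Cks2, a small cofactor of cyclin-dependent kinases, read 21.03 and 27.6 against 76.6 and 65.8 TPM (1.52 ± 0.18, adjusted p = 0.00814). These 3 genes had their higher value in Cd47ΔT library 1. Among nucleotide synthesis genes, Tk1, the salvage thymidine kinase, read 9.63 and 11.3 against 39.9 and 37.7 TPM (1.80 ± 0.17, adjusted p = 0.00461). Rrm2, the regulated subunit of ribonucleotide reductase, read 14.5 and 19.9 against 78.0 and 66.5 TPM (2.02 ± 0.19, adjusted p = 0.0049). Tyms, thymidylate synthase, read 14.7 and 17.8 against 51.5 and 48.9 TPM (1.57 ± 0.16, adjusted p = 0.00599). All 6 genes had non-overlapping groups. Uhrf1, which maintains DNA methylation at replication forks, read 8.80 and 12.2 against 38.0 and 36.2 TPM (1.75 ± 0.20, adjusted p = 0.00773). Hmgb2, a chromatin protein of dividing cells, read 68.7 and 77.7 against 181 and 168 TPM (1.25 ± 0.12, adjusted p = 0.00538). Stmn1, which destabilises microtubules, read 90.1 and 96.3 against 307 and 261 TPM (1.59 ± 0.12, adjusted p = 0.00306). No left-out library ended a call of any of these 9 genes or of Cdk1 and Ube2c. Plasma cell and erythroid marker sums were also higher in Cd47ΔT (erythroid 47.1 and 35.3 against 104 and 199 TPM), and the part of other dividing cells was not tested.

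Of 17 G1 control genes and cyclin-dependent kinase inhibitors, 1 was higher and none lower (median 0.16, negative without control library 1; 7 higher without control library 2). That gene was Cdkn2c, which encodes p18, at 8.47 and 10.9 TPM in the controls and 32.9 and 26.7 TPM in Cd47ΔT (log2 fold change 1.53 ± 0.20, adjusted p = 0.0112). Of 37 chromatin regulators 3 were higher and none lower, with a median of 0.04 that turned negative under quantile, median-of-ratios and protein-coding scaling and without control library 1 (1, 5, 1 and 1 higher without control libraries 1 and 2 and Cd47ΔT libraries 1 and 2). The 3 higher genes were 8.11% of the chromatin list, near the 8.5% of all genes tested. Ezh2, the histone methyltransferase of Polycomb complex 2, read 17.6 and 23.6 against 45.6 and 37.9 TPM (0.99 ± 0.20, adjusted p = 0.0305). The groups did not overlap, and the Ezh2 call ended without control library 1 (adjusted p = 0.0643), Cd47ΔT library 1 (0.197) or Cd47ΔT library 2 (0.055).

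The series title names T cell survival and necroptosis. Of 28 members of a necroptosis and death receptor list 1 was higher and none lower, with a median of 0.11 (1, 3, 1 and 1 higher without control libraries 1 and 2 and Cd47ΔT libraries 1 and 2). The median turned negative under quantile and median-of-ratios scaling and without control library 1, and stayed positive under protein-coding scaling. The called gene was Tnfrsf1b, given above. Of 24 BCL2 family and caspase members 4 were higher and none lower, with a median of 0.35 (2, 8, 0 and 3 without control libraries 1 and 2 and Cd47ΔT libraries 1 and 2). Bcl2a1b, an anti-apoptotic BCL2 relative with near-identical copies, read 32.1 and 29.6 TPM in the controls and 73.6 and 60.4 TPM in Cd47ΔT (log2 fold change 1.09 ± 0.15, adjusted p = 0.0127). Bcl2l1, which encodes BCL-XL, read 11.8 and 15.2 against 29.3 and 27.7 TPM (1.03 ± 0.18, adjusted p = 0.0236). The groups did not overlap in either gene. Without Cd47ΔT library 1 the adjusted p was 0.0729 for Bcl2a1b and 0.148 for Bcl2l1. The Bcl2l1 call also ended without Cd47ΔT library 2 (0.105).

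Interferon response genes had 8 of 35 members higher and none lower, with a median of 0.50. The count was 6, 15, 3 and 3 without control libraries 1 and 2 and Cd47ΔT libraries 1 and 2, and 3 under each of quantile and median-of-ratios scaling. Oas1a, an oligoadenylate synthetase gene, read 10.4 and 9.53 TPM in the controls and 36.3 and 28.9 TPM in Cd47ΔT (log2 fold change 1.61 ± 0.19, adjusted p = 0.00784). The dynamin-like antiviral gene Mx1 read 6.20 and 5.90 against 20.4 and 16.9 TPM (1.47 ± 0.19, adjusted p = 0.0111). Ifi27l2a, the most abundant of the 3, read 509 and 372 against 894 and 765 TPM (0.92 ± 0.17, adjusted p = 0.0249). Controls and Cd47ΔT did not overlap in the 3 genes, and no left-out library ended a call; that of Ifi27l2a ended under quantile (adjusted p = 0.0772) and median-of-ratios scaling (0.13). Monocyte markers, whose cells also express interferon response genes, summed to 304 and 371 against 770 and 1132 TPM, and their part was not tested. Of 20 MHC class I members 1 was higher (median 0.15; 1, 2, 0 and 0 without control libraries 1 and 2 and Cd47ΔT libraries 1 and 2), the nonclassical H2-Q7 at 775 and 694 against 1009 and 973 TPM (0.43 ± 0.10, adjusted p = 0.0460), whose call ended without Cd47ΔT library 1 (0.416) or 2 (0.282) and whose near-identical relatives make the read split uncertain. Of 15 guanylate-binding protein and related GTPase members 1 was higher (median 0.08, negative under quantile and median-of-ratios scaling and without control library 1 or Cd47ΔT library 1), Gbp3 at 11.1 and 13.2 against 26.4 and 20.8 TPM (0.90 ± 0.20, adjusted p = 0.0408). The list's higher count was 0 without control library 1, where 1 member was lower, 2 without control library 2 and 0 without either Cd47ΔT library. The Gbp3 call ended without control library 1 (adjusted p = 0.0851), Cd47ΔT library 1 (0.42) or Cd47ΔT library 2 (0.113).

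Mitochondrially encoded messengers were mostly lower. Of 13 members encoded in the mitochondrion 10 were lower and none higher, with a median log2 fold change of -0.56. The lower count was 8, 9, 6 and 5 without control libraries 1 and 2 and Cd47ΔT libraries 1 and 2, and 2 under median-of-ratios scaling. Their summed share of TPM was 6.99 and 6.55% in the controls and 4.10 and 4.37% in Cd47ΔT. mt-Nd4l, a complex I subunit, read 3589 and 3462 TPM against 1238 and 1215 TPM (-1.52 ± 0.08, adjusted p = 0.00134). The ATP synthase subunit mt-Atp6 read 1034 and 564 against 211 and 154 TPM (-2.08 ± 0.29, adjusted p = 0.0127). mt-Atp8, whose reading frame overlaps that of mt-Atp6, read 23428 and 19814 against 9610.0 and 11910.4 TPM (-1.01 ± 0.14, adjusted p = 0.0112). Controls lay above Cd47ΔT in all 3, the division of reads between the overlapping ATP synthase genes being uncertain. Another complex I gene, mt-Nd2, read 3249 and 3083 against 2049 and 2199 TPM (-0.58 ± 0.09, adjusted p = 0.0153), and its call ended without Cd47ΔT library 1 (0.134), without Cd47ΔT library 2 (0.0565) and under median-of-ratios scaling (0.0954).

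Nuclear-encoded subunits of oxidative phosphorylation had 7 of 73 members higher and none lower, with a median of 0.27. That is 9.59% of them, near the 8.5% of all genes tested. Without control libraries 1 and 2 the count was 13 and 11, without either Cd47ΔT library 0, and under quantile and median-of-ratios scaling 1 and 0. Cox5b, a cytochrome c oxidase subunit, read 187 and 176 TPM in the controls and 305 and 269 TPM in Cd47ΔT (log2 fold change 0.66 ± 0.11, adjusted p = 0.0212). Uqcr10, a complex III subunit, read 207 and 196 against 285 and 287 TPM (0.50 ± 0.10, adjusted p = 0.0309). Each was higher in both Cd47ΔT libraries than in both controls. The adjusted p of Cox5b was 0.218 and 0.0583 without Cd47ΔT libraries 1 and 2, and that of Uqcr10 0.303 and 0.312.

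Glycolysis genes had 3 of 25 members higher and 2 lower, with a median of 0.25. The counts were 2 and 1 without control library 1, 8 and 1 without control library 2, and 1 and 2 under each of quantile and median-of-ratios scaling; neither direction had a call without either Cd47ΔT library. Gapdh, the glycolytic dehydrogenase, read 713 and 747 TPM in the controls and 1085 and 1034 TPM in Cd47ΔT (log2 fold change 0.54 ± 0.09, adjusted p = 0.0191). Pdk1, which inhibits pyruvate dehydrogenase, read 145 and 157 against 96.6 and 102 TPM (-0.60 ± 0.11, adjusted p = 0.0273). Ldhb, the lactate dehydrogenase B subunit, read 24.7 and 22.7 against 14.3 and 10.9 TPM (-0.87 ± 0.19, adjusted p = 0.0430). Their groups did not overlap. Without Cd47ΔT libraries 1 and 2 the adjusted p was 0.208 and 0.119 for Gapdh, 0.27 and 0.169 for Pdk1 and 0.0985 and 0.417 for Ldhb, whose call also ended without control library 1 (0.0929) or 2 (0.0549).

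Amino acid and polyamine metabolism had 2 of 28 members higher (median 0.18; 0, 5, 0 and 1 without control libraries 1 and 2 and Cd47ΔT libraries 1 and 2). Those 2 genes were 7.14% of the list, where 8.5% of all genes tested were higher. Odc1, the first enzyme of polyamine synthesis, read 42.0 and 42.7 TPM in the controls and 87.2 and 71.4 TPM in Cd47ΔT (log2 fold change 0.88 ± 0.15, adjusted p = 0.0184). Psat1, an enzyme of serine synthesis, read 23.04 and 28.5 against 47.4 and 40.8 TPM (0.76 ± 0.17, adjusted p = 0.0456). The groups did not overlap in either gene. Without control library 1 the adjusted p was 0.0521 for Odc1 and 0.0768 for Psat1. Without Cd47ΔT library 1 it was 0.175 and 0.406, and without Cd47ΔT library 2 it was 0.151 for Psat1.

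Ribosomal protein genes, the most abundant class, had 0 of 78 members higher and 1 lower, with a median of -0.11. The median turned positive without control library 1, the library with the highest ribosomal share, where 1 member was higher and 0 lower; without control library 2, 18 were lower. The called gene, Rpl12, read 4919 and 4326 TPM in the controls and 3462 and 3245 TPM in Cd47ΔT (log2 fold change -0.46 ± 0.10, adjusted p = 0.0387). Its call ended without control library 1 (adjusted p = 0.0671), Cd47ΔT library 1 (0.16), Cd47ΔT library 2 (0.32) and under median-of-ratios scaling (0.217).

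Several lists had no called member by limma. PI3K, AKT and mTOR signalling, with a median of -0.05 over 27 members that turned positive without control library 2 or Cd47ΔT library 1, had 2 lower genes and no higher one (3, 2, 0 and 0 lower without control libraries 1 and 2 and Cd47ΔT libraries 1 and 2). Pik3ip1 belongs to that pathway, whereas Pdk1, although on the list, encodes pyruvate dehydrogenase kinase and does not. The lists without a call were the GIMAP GTPases (8 members, median -0.13), NF-κB regulators (22, 0.15), translation factors (34, 0.05), ribosome biogenesis (30, 0.08), the tricarboxylic acid cycle (20, 0.10), sterol synthesis (28, 0.06), chaperones (22, 0.07) and splicing factors (39, 0.12), against 0.10 over all genes tested. Each of these medians except that of the GIMAP list turned negative under another scaling or without control library 1. At an unadjusted p under 0.05 the GIMAP list held 1 higher and 1 lower member, the tricarboxylic acid cycle 2 and 1, NF-κB 2 and 0, translation 2 and 0, ribosome biogenesis 1 and 0, sterol synthesis 1 and 0, splicing 4 and 0 and chaperones 0 and 0. Gimap6, a GTPase of the lymphocyte survival cluster, read 793 and 753 TPM in the controls and 621 and 614 TPM in Cd47ΔT (log2 fold change -0.32 ± 0.09, adjusted p = 0.0834). Mdh1, the cytosolic malate dehydrogenase, read 149 and 179 against 226 and 208 TPM (0.40 ± 0.13, adjusted p = 0.125). Srebf2, the master factor of sterol synthesis, read 62.6 and 73.6 against 52.0 and 59.2 TPM (-0.29 ± 0.15, adjusted p = 0.344). The groups of these 3 genes did not overlap, without passing the test. Without control library 2 there were 9 higher calls among splicing factors, 5 among translation factors, 3 among chaperones, 2 in ribosome biogenesis and 1 each in NF-κB, sterol synthesis and the tricarboxylic acid cycle (1 lower there as well, and 1 in the GIMAP list); without control library 1 there were 3 lower chaperones, 1 lower translation factor and 1 higher splicing factor.

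**Figure D5:**
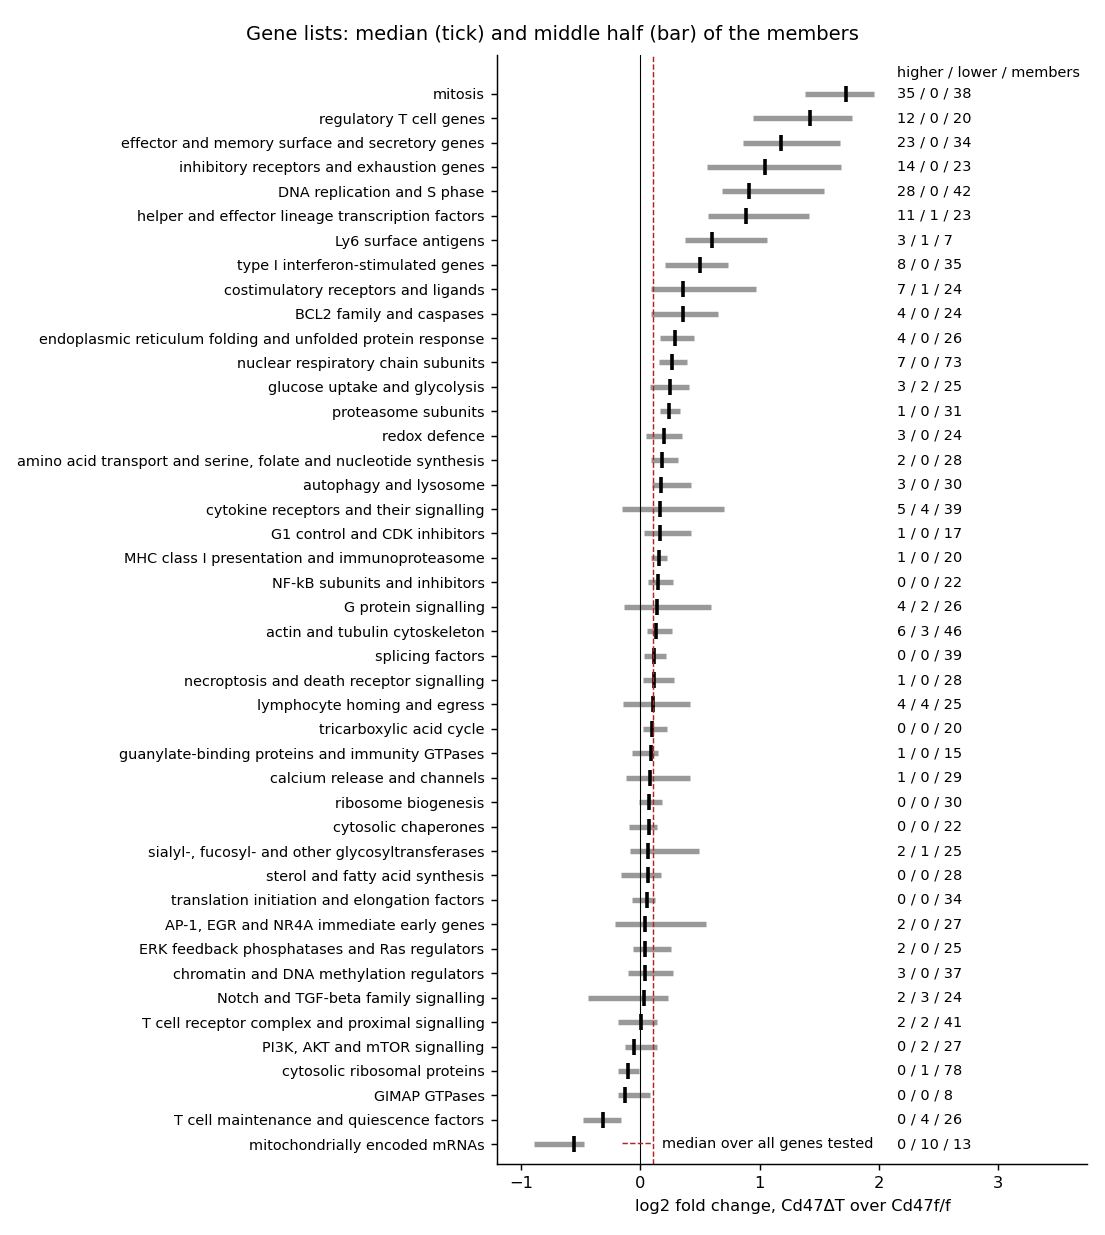
Median (tick) and middle range (bar) of the log2 fold change of Cd47ΔT over Cd47f/f among the members of each gene list, with the numbers called higher, lower and all members at the right; the dashed line is the median over all genes tested. Mitosis lies highest at 1.73 and the mitochondrially encoded genes lowest at -0.56.

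Early response and signalling lists were called higher in 7.41% (AP-1 and EGR), 8.0% (ERK), 3.45% (calcium) and 15.4% (G protein signalling) of members. Over all genes tested the share was 8.5%. Of 27 AP-1 and EGR family members 2 were higher (median 0.04; 0, 3, 1 and 0 without control libraries 1 and 2 and Cd47ΔT libraries 1 and 2), of 25 ERK feedback and Ras regulator members 2 (median 0.04; 0, 2, 0 and 1), and of 29 calcium pathway members 1 (median 0.08; 0, 7, 0 and 0). Each of these medians turned negative under quantile and median-of-ratios scaling and without control library 1. Dusp5, a nuclear ERK phosphatase, read 20.9 and 22.8 TPM in the controls and 37.9 and 35.1 TPM in Cd47ΔT (log2 fold change 0.72 ± 0.15, adjusted p = 0.0352). Dusp4, a related phosphatase, read 1.81 and 2.07 against 8.37 and 5.32 TPM (1.39 ± 0.26, adjusted p = 0.0278). Calm2, a calmodulin gene, read 205 and 220.0 against 304 and 290.5 TPM (0.48 ± 0.10, adjusted p = 0.0372). All 3 had groups apart, but each call ended without control library 1 (adjusted p = 0.0553, 0.0851 and 0.0516) and without Cd47ΔT library 1 (0.406, 0.0895 and 0.414). Those of Dusp5 and Calm2 also ended without Cd47ΔT library 2 (0.251 and 0.27), and that of Dusp4 without control library 2 (0.0536). Of 26 G protein-coupled signalling members 4 were higher and 2 lower, with a median of 0.14 that turned negative under quantile scaling (2 and 1, 6 and 2, 2 and 0, and 3 and 0 without control libraries 1 and 2 and Cd47ΔT libraries 1 and 2). Rgs1, which damps chemokine receptor signals, read 15.7 and 11.6 against 39.7 and 36.3 TPM (1.43 ± 0.19, adjusted p = 0.0114). Gng2, a G protein gamma subunit, read 30.7 and 37.6 against 76.5 and 70.2 TPM (1.09 ± 0.15, adjusted p = 0.0127). Both calls held without each library.

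Cytoskeleton and adhesion genes had 6 of 46 members higher and 3 lower, with a median of 0.13 (3 and 2, 12 and 3, 2 and 1, and 3 and 2 without control libraries 1 and 2 and Cd47ΔT libraries 1 and 2). Vim, the intermediate filament gene vimentin, read 289 and 359.7 TPM in the controls and 699 and 705 TPM in Cd47ΔT (log2 fold change 1.12 ± 0.13, adjusted p = 0.00773). Actn1, an actin cross-linker gene, read 187 and 230.3 against 105 and 122 TPM (-0.87 ± 0.15, adjusted p = 0.0193). Tmsb4x, the actin-sequestering thymosin gene and among the most abundant members, read 7277 and 6438 against 8317 and 7772 TPM (0.23 ± 0.10, adjusted p = 0.236). Vim and Actn1 lay on opposite sides with no overlap, and the Actn1 call ended without Cd47ΔT library 1 (adjusted p = 0.0741).

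Called genes of lysosomes, autophagy and redox defence were all higher. With only 3 such genes in each list, the shares were not clearly above the 8.5% of all genes tested. Of all called members 85.8% were higher, so the shared direction does not set these lists apart. Of 30 autophagy and lysosome members 3 were higher and none lower (median 0.17; 3, 7, 1 and 0 without control libraries 1 and 2 and Cd47ΔT libraries 1 and 2). Ctsb, the cathepsin B gene, read 47.0 and 50.6 TPM in the controls and 83.5 and 91.9 TPM in Cd47ΔT (log2 fold change 0.83 ± 0.13, adjusted p = 0.0155). Ctsz, another cathepsin gene, read 35.1 and 35.9 against 62.4 and 67.8 TPM (0.86 ± 0.13, adjusted p = 0.0153). Gabarapl1, an autophagosome protein gene, read 3.34 and 3.18 against 9.29 and 9.86 TPM (1.31 ± 0.20, adjusted p = 0.0151). Replicates were close in all 3, with groups apart. Without Cd47ΔT library 2 the adjusted p was 0.138 for Ctsb, 0.146 for Ctsz and 0.0652 for Gabarapl1, and without Cd47ΔT library 1 it was 0.0608 for Ctsb and 0.0748 for Ctsz. Of 24 redox members 3 were higher and none lower (median 0.20; 2 to 4 when a library was left out). Hmox1, heme oxygenase, a gene of red pulp macrophages as well as of stressed cells, read 5.57 and 5.89 against 29.2 and 40.1 TPM (2.39 ± 0.21, adjusted p = 0.00434). The thioredoxin gene Txn1, also of the redox list, read 89.8 and 89.6 against 178 and 166 TPM (0.93 ± 0.11, adjusted p = 0.00814). Outside the redox list, Cst3, the secreted cathepsin inhibitor cystatin C, read 71.0 and 78.5 against 175 and 220.0 TPM (1.38 ± 0.15, adjusted p = 0.00663). The calls of Hmox1, Txn1 and Cst3 held without each library. The red pulp macrophage sum moved with them (28.8 and 38.3 against 214 and 338 TPM). Hmox1 is itself in that sum, so its shared direction was partly fixed by the list. The part of red pulp macrophages was not tested.

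Protein quality control genes were called higher in 3.23% of proteasome and 15.4% of unfolded protein response members, where 8.5% of all genes tested were. Of 31 proteasome members 1 was higher (median 0.24; 1, 4, 0 and 0 without control libraries 1 and 2 and Cd47ΔT libraries 1 and 2), and of 26 unfolded protein response members 4 (median 0.29; 3, 9, 0 and 0). Psmb2, a proteasome core subunit, read 129 and 127 TPM in the controls and 184 and 176 TPM in Cd47ΔT (log2 fold change 0.49 ± 0.10, adjusted p = 0.0387). Sdf2l1, an endoplasmic reticulum chaperone cofactor, read 16.7 and 17.6 against 30.4 and 30.9 TPM (0.81 ± 0.15, adjusted p = 0.0265). Groups did not overlap, but neither call held without Cd47ΔT library 1 (adjusted p = 0.46 for Psmb2 and 0.248 for Sdf2l1) or 2 (0.316 and 0.265). Plasma cell markers, whose cells are rich in secretory genes, summed to 1540.2 and 1676 against 6733 and 7989 TPM. Most of that sum came from immunoglobulin constant genes, and the part of plasma cells was not tested.

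Partners of CD47 were looked at as a list of 12 members, of which 1 was higher and 1, Cd47, lower. The higher gene was Sirpa, the phagocyte receptor for CD47, at 1.91 and 2.78 TPM in the controls and 15.6 and 28.3 TPM in Cd47ΔT (log2 fold change 2.73 ± 0.32, adjusted p = 0.00804). SIRPα is a marker of macrophages and type 2 dendritic cells, whose marker sums were higher too (28.8 and 38.3 against 214 and 338 TPM for red pulp macrophages), and their part was not tested. The list's median of 0.16 turned negative under quantile scaling; 2 of its members were lower without control library 1 and 3 under each of quantile and median-of-ratios scaling. Of 19 members that flank Cd47 on chromosome 16, Cd47 included, 1 was higher and 2 lower, with a median of 0.15 that turned negative under quantile scaling and without control library 1. The other lower neighbour was Trat1, given above, and the higher one was Alcam, an adhesion molecule gene, at 2.01 and 3.28 against 7.40 and 9.26 TPM (1.37 ± 0.26, adjusted p = 0.0278), whose call ended without control library 1 (0.0667) or Cd47ΔT library 2 (0.0864). Among these neighbours 3 were higher and 1 lower without control library 2.

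By class of gene, 559 of 10046 protein-coding members were higher (5.56%) and 75 lower, against 56 of 100 immunoglobulin variable and 10 of 11 immunoglobulin constant members higher. T cell receptor variable members went the other way, with 1 of 107 higher and 6 lower and a median of -0.17. Of 7 T cell receptor constant members 3 were higher, all of them gamma chain genes; Tcrg-C1, named after its values were seen, read 5.79 and 5.77 TPM in the controls and 14.02 and 18.1 TPM in Cd47ΔT (log2 fold change 1.32 ± 0.21, adjusted p = 0.0161). Leaving out Cd47ΔT library 2 ended the Tcrg-C1 call (adjusted p = 0.115), and near-identical gamma constant genes make its read split uncertain. Innate lymphoid markers, whose cells can carry gamma chain transcripts, summed to 33.3 and 43.2 against 157 and 159 TPM, with 1 of 5 members called higher. That list shares Ncr1 with the natural killer list and Kit with the mast cell list, so its sum does not mark a single cell type. Which cells the gamma chain transcripts came from was not tested. By chromosome, the shares of higher members were largest on chromosomes 6 (11.99%) and 12 (11.4%), which carry the immunoglobulin kappa and heavy chain loci, and 11 of 15 members encoded in the mitochondrial genome were lower.

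The threshold of 1 TPM separates genes of nearly equal level. Just inside it, Chst2 read 1 and 1.04 TPM in the controls and 3.79 and 1.97 TPM in Cd47ΔT, and Ppp1r13l 1 and 1 against 0.56 and 0.58 TPM. Just outside it, Ppm1l read 0.99 and 1.26 against 0.84 and 1.01 TPM, and Rilpl1 1.18 and 0.99 against 0.91 and 2.11 TPM. With a threshold of 5 TPM 341 of 8892 members were higher and 92 lower.

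Settings other than a left-out library also ended calls named above. Under median-of-ratios scaling 21 of the described calls ended, those of Ly6e, Cd52, Rpl12, mt-Atp8, mt-Nd2, Cd4, Cd8a, Cd8b1, S1pr1, Ccr7, Batf, Ifi27l2a, H2-Q7, Cox5b, Uqcr10, Gapdh, Psmb2, Calm2, Id2, Dtx3 and Hbb-bs, with adjusted p from 0.0511 (S1pr1) to 0.459 (Cd52). Under quantile scaling those of Cd4, Cd8a, Batf, Dusp5, Ifi27l2a, H2-Q7, Gbp3, Uqcr10, Ldhb, Psmb2, Dusp4, Dtx3 and Hbb-bs ended (0.0508 for Ldhb to 0.116 for H2-Q7), while Pecam1 and Gimap6 passed as lower (0.0249 and 0.0245). A constant prior variance in place of the trend ended 32 of them, mostly of abundant genes, with adjusted p from 0.0502 (Actn1) to 0.196 (Cd52). The calls of Cd4, Gpr183, Tgfbr2, H2-Q7 and Psat1 ended with a pseudocount of 0.1 TPM (0.0519 to 0.0581), those of Cd52, Cd4, Gpr183, H2-Q7 and Psat1 with a filter of 5 TPM (0.0507 to 0.0539), those of Cd52, H2-Q7 and Psat1 under protein-coding scaling (0.0539 to 0.0663), and those of Cd4, Lyz2 and Hbb-bs with a robust variance trend (0.0512 to 0.0641).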

How the data were processed

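RNA of splenic T cells came from an RNeasy mini kit extraction, and libraries from the TruSeq stranded mRNA kit, per the labels' protocols. The authors deposited 1 table of TPM per gene and library; STAR, RSEM, DESeq2 and the build GRCm38 are named in the submitters' processing notes, with no versions, while no source at hand states whether counting used strand. TPM sum to the same total in each library and keep no depth, so no counting interval can be given. The 6 dendritic cell columns were not used. Gene symbols were matched to GENCODE M21 for position, class and length; 41 members had no match. Values were taken as log2(TPM + 1). A gene was tested when it reached 1 TPM in at least 2 of the 4 libraries, in R 4.3.3 by limma 3.58.1 (a linear model per gene moderated toward a mean-variance trend) over all 12453 such genes, genotype as the only term and n = 2 per genotype. Benjamini-Hochberg adjustment ran over all of them, and an adjusted p under 0.05 was a call. Fold changes are on the log2(TPM + 1) scale, which understates those of low genes; ± is the standard error of the fit. The script was tested on simulated data. Tables were made with pandas 2.3.3 and numpy 2.4.6 and figures with matplotlib 3.10.9, under Python 3.11.15. The members, the gene lists and the marker lists were chosen with earlier results of these data known, so their counts are descriptions and not independent support. Genes were named by rule: Cd47; the 15 largest rises and falls among called members at 20 TPM or more in both controls with groups apart, leaving out immunoglobulin and T cell receptor segments, mitochondrial genes, pseudogenes and unnamed gene models; the largest changes in TPM and the most abundant members, with the same genes left out; up to 4 called genes per list by smallest p; and up to 2 per marker list by control level. Alternatives were the pseudocount (0.1 and 5 TPM), no filter or a filter of 5 TPM, quantile, median-of-ratios and protein-coding scaling, a constant or robust prior variance, a replicate block, each library left out, and thresholds of 0.5, 2 and 5 TPM for membership.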

Additional observations from a re-analysis of the deposited data

How the results depend on the processing

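The count of 660 higher and 109 lower members stayed within 1.5 times under both pseudocounts (608 to 665 and 89 to 106), a filter of 5 TPM (596 and 79), protein-coding scaling (606 and 114), a constant (603 and 81) or robust variance (708 and 116) and membership at 0.5 or 2 TPM. With no filter 12 were higher and 1 lower, and the adjusted p of Cd47 was 0.0872 at an unchanged log2 fold change of -1.95. Lower members numbered 336 under quantile and 221 under median-of-ratios scaling, and membership at 5 TPM left 341 higher. Leaving out 1 library gave 435 to 1193 higher and 50 to 140 lower members and a median log2 fold change of -0.0354 (without control library 1) to 0.20. The median of 0.08 was -0.10 under quantile and -0.0376 under median-of-ratios scaling. With the replicate number as a block 1298 were higher and 305 lower; the numbers are only shared labels, since nothing says that they pair mice, there are 2 pairs and the deviations of same-numbered libraries correlated at 0.19 over genes. Of 119 genes described, 105 lost a call with no filter, 42 without each Cd47ΔT library, 15 and 9 without control libraries 1 and 2, and none changed direction. Where 1 library was left in a group, its spread was taken from the other genotype. With 2 libraries per genotype and unknown depth, small differences of low genes could not be resolved.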
